A study of Mus musculus with 2 samples.

Results

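The Smarca4 locus, the floxed gene of this experiment, was taken as the interval of chromosome 9 from 21415000 to 21512000 on the mouse build mm9, which is the gene with short flanks. A called nucleosome belonged to it when the midpoint of its start and end lay in that interval. By this rule 265 of the 2724853 calls of both libraries were in the locus, 134 from the ethanol library and 131 from the tamoxifen library. The 97 kb before and the 97 kb after it served for comparison. Both libraries come from embryonic stem (ES) cells with the genotype Brg1fl/fl and a Cre recombinase fused to the estrogen receptor and driven by an actin promoter (Actin-CreER), grown on gelatin in serum and LIF. The tamoxifen group received 0.8 µM tamoxifen and the ethanol group an equal volume of ethanol, for 24 hours, followed by 48 hours of growth without either. The floxed alleles and the Cre are thus common to both groups, and the labels name the agent as the difference between them. Each group has 1 library, so no difference can be set against a spread between cultures, and the comparisons are descriptions without a test.

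Smarca4 encodes Brg1, the ATPase that powers the esBAF complex, the form of SWI/SNF chromatin remodeler found in ES cells. Remodelers of this family use ATP to slide or evict nucleosomes, and in ES cells esBAF is needed for self-renewal and pluripotency. In a floxed allele a segment of the gene lies between loxP sites, and Cre recombinase joins the sites and removes the DNA between them. CreER is held in the cytoplasm until tamoxifen binds it. In MNase-seq, micrococcal nuclease cuts the linkers and the DNA protected by single nucleosomes is sequenced, so that a piece of the genome that a cell no longer has yields no reads. Neither the positions of the loxP sites nor the share of recombined alleles is stated in the sources used here. No annotation of mm9 was used, so no call is placed in an exon, intron or promoter of Smarca4. In the RefSeq table, which is on GRCm38.p6, Smarca4 also lies on chromosome 9.

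The ethanol library held 1300009 calls over all chromosomes and the tamoxifen library 1424844, which is 9.6% more. Each call has a score given by the authors, from 50.1 to 3250 with a median of 86.0 in either list. The sources used here do not define the score, so it is used only to describe and rank calls within a list. The lists hold only calls that passed the authors' cutoffs, and the number of reads is unknown. A nucleosome without a call may therefore still be present. Intervals below are 95% and cover counting error only.

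Over the whole Smarca4 locus the number of called nucleosomes was close in both libraries. The 134 ethanol calls (exact Poisson interval 112.3 to 158.7) amount to 1.38 per kb, and the 131 tamoxifen calls (109.5 to 155.4) to 1.35 per kb. After scaling to the library totals the log2 ratio of tamoxifen over ethanol was -0.17, with an exact interval from -0.52 to 0.19 that includes 0. In the flank before the locus there were 132 and 125 calls, a log2 ratio of -0.21 (-0.58 to 0.15). In the flank after it there were 127 and 149 calls, a log2 ratio of 0.10 (-0.25 to 0.45). The interval of the locus overlaps those of both flanks and holds the value of chromosome 9 as a whole, 0.00. Counted over its full length, the floxed gene thus did not stand apart from its surroundings at this number of calls.

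Calls were unevenly spread along the gene in both libraries. In 10 windows of 9.7 kb the ethanol counts ran from 6 to 22 and the tamoxifen counts from 7 to 20. The highest count of each library was in the same window, 58.2 to 67.9 kb from the start of the locus, with 22 ethanol and 20 tamoxifen calls. The first 19.4 kb were thinly covered, with 6 and 7 ethanol calls and 9 and 7 tamoxifen calls in the first and the second window. Tamoxifen calls were fewer in 6 windows, more in 3 and equal in 1. The largest drop lay in the window from 48.5 to 58.2 kb, with 19 ethanol and 12 tamoxifen calls. A drop of the same size, from 17 to 10, occurred in the last window of the flank before the locus, so the size of a window difference does not set the gene apart.

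**Figure D1:**
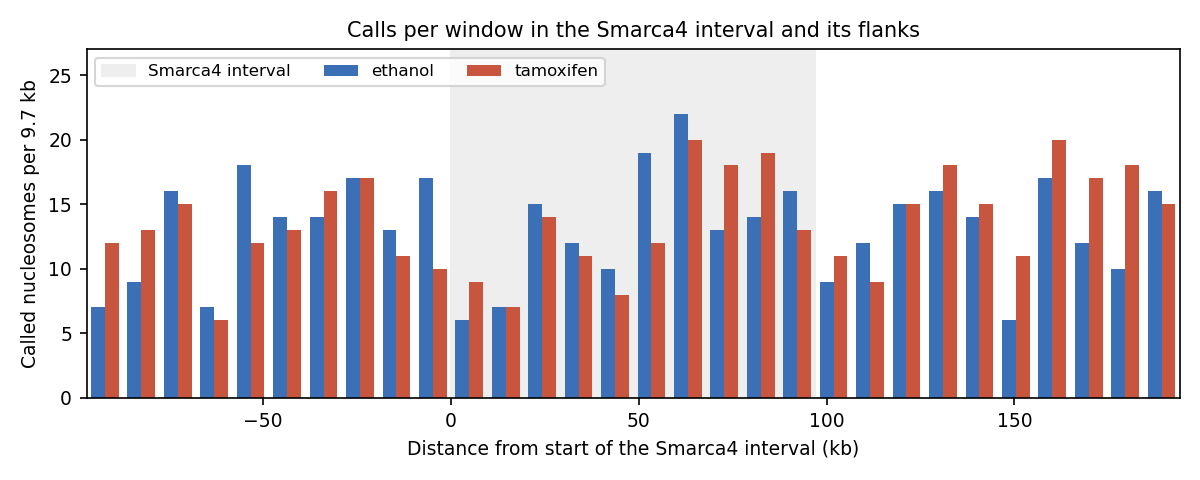
Number of called nucleosomes (vertical axis) per window of 9.7 kb, against distance from the start of the Smarca4 interval in kb (horizontal axis), for the ethanol (blue) and tamoxifen (red) libraries; the grey area is the locus. Within the locus, bars of both libraries are tallest in the window from 58.2 to 67.9 kb. A window of the flank after it, from 155.2 to 164.9 kb, has as many tamoxifen calls, 20. The widest difference within the locus, 19 against 12 calls, is in the window from 48.5 to 58.2 kb.

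Within that window the ethanol library had 8 successive called nucleosomes where the tamoxifen library had no call. Such a run is called a stretch when each of its calls is over 100 bp away from the closest call in the other library and none of the latter falls inside it. Its first and last centres were 21468391 and 21470241, a span of 1850 bp that begins 53.4 kb and ends 55.2 kb into the locus. The tamoxifen calls on either side were centred at 21468086 and 21470691. The 2605 bp between these centres, 2.69% of the locus, is called the gap and held no other tamoxifen centre. The extents of these calls reach into it, up to 21468151 on the low-coordinate side and from 21470591 on the other. The stretch was known from earlier work on these lists and is described here, not tested.

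The 8 ethanol calls included strong and weak ones. From the low-coordinate side, the first, centred at 21468391, was 100 bp wide with a score of 124.1, at percentile 73.1 of the ethanol list. The second, at 21468586, scored 54.5 and was the weakest of the stretch, at percentile 8.1. The third, at 21468911, was the strongest, with a score of 237.2 at percentile 93.4. It also had the highest score of all 41 ethanol calls of the locus without a tamoxifen call within 100 bp. The fourth call, at 21469166, scored 121.7 and the fifth, at 21469431, scored 74.4. The sixth, at 21469726, scored 157.7, which made it the runner-up among those 41. The seventh and the eighth, at 21470061 and 21470241, scored 104.5 and 123.0. In all, 6 of the 8 were in the upper 50% of the ethanol list by score, so the calls of the stretch were not limited to weak ones. Of all 134 ethanol calls of the locus, 80 were in that upper 50%, which is 59.7%. Outside this gap the highest score of an ethanol call of the locus without such a partner was 140.2. In the flank before the locus an ethanol call without such a partner scored 245.8, above every call of the stretch.

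Neighbouring centres in the stretch were 180 to 335 bp apart, with a mean of 264.3 bp. Only the first and the last of the distances, 195 and 180 bp, were near 1 nucleosome repeat, and the others ran from 255 to 335 bp. The stretch was therefore densely called but not a regular array.

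Calls at both edges of the gap were shared. At the low-coordinate edge an ethanol call at 21468091 with a score of 74.4 and a tamoxifen call at 21468086 with a score of 54.7 were 5 bp apart. At the other edge an ethanol call at 21470696 with a score of 108.1 and a tamoxifen call at 21470691 with a score of 80.5 were also 5 bp apart. The tamoxifen call at that edge was 200 bp wide, from 21470591 to 21470791, against 90 bp for its ethanol partner. The next tamoxifen call, at 21471141, had a score of 220.9, percentile 92.5 of its list. Tamoxifen calls thus stopped and resumed at positions that were also called in the ethanol library. Such sharing was common and does not set the edges apart. Of the tamoxifen calls, 45.8% in the locus and 40.5% over all chromosomes had an ethanol call within 20 bp.

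Intervals of the same 2605 bp next to the gap did not show such a contrast. The gap itself held 9 ethanol calls, the 8 of the stretch and the edge call at 21468091, and 0 tamoxifen calls. The interval just before it held 2 ethanol and 3 tamoxifen calls, and the interval just after it 7 and 4. The tamoxifen calls at 21468086 and 21470691 set the limits of these intervals and are counted in none of them. Their ethanol partners are counted, at 21468091 in the gap and at 21470696 in the interval after it, so the contrast is drawn slightly too sharp. In the interval before, 0 of the ethanol calls lay over 100 bp from a tamoxifen call, and in the interval after, 2 did.

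**Figure D2:**
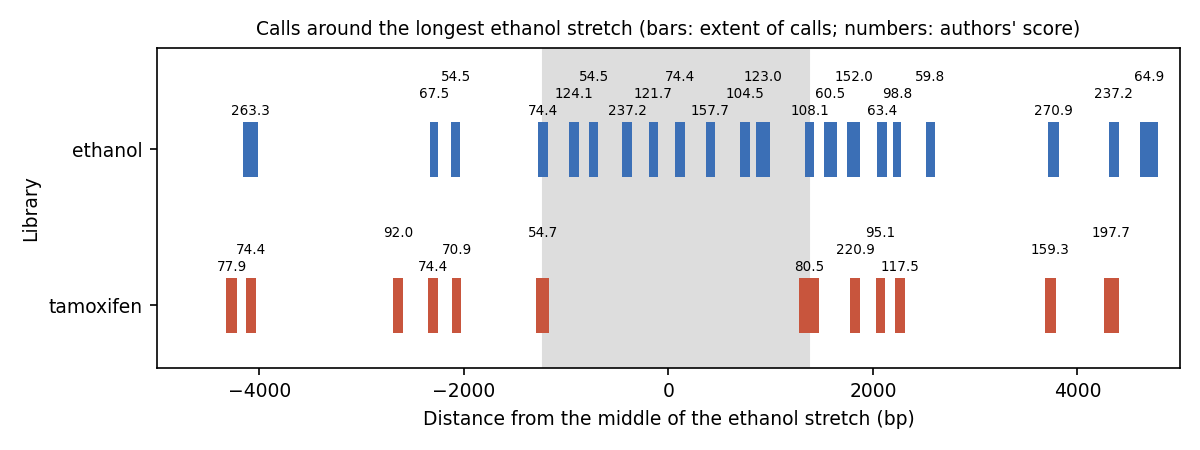
Extent of each called nucleosome (bars) in the ethanol (blue) and tamoxifen (red) libraries, against distance in bp from the middle of the ethanol stretch, with the authors' score of each call above its bar; the grey area is the tamoxifen gap of 2605 bp. The 8 ethanol calls of the stretch lie within the gap, and calls of both libraries 5 bp apart mark each of its edges.

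Long gaps by themselves were common in both lists, and it was the number of calls facing the gap that set this one off within the locus. The locus had 8 tamoxifen gaps and 8 ethanol gaps of more than 2 kb between successive centres, the longest of 4245 and 4620 bp. The other tamoxifen gaps held at most 3 ethanol calls over 100 bp from a tamoxifen call, and the ethanol gaps at most 3 such tamoxifen calls. Genome-wide, 16.4% of the gaps of the tamoxifen list were 2605 bp or longer, and their median number of such ethanol calls was 0.

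Over all chromosomes, gaps facing 8 or more calls of the other library were rare. Of 1424822 gaps between tamoxifen calls, 28 held 8 or more unpartnered ethanol calls, which is 0.00197%. In the opposite direction 156 of 1299987 ethanol gaps held 8 or more unpartnered tamoxifen calls, 0.012%. These shares are taken over all gaps, most of them short, with medians of 785 bp for tamoxifen and 820 bp for ethanol. Among gaps of 2605 bp or longer, the counts were 28 of 234236 tamoxifen gaps and 156 of 234287 ethanol gaps. The Smarca4 stretch had the shortest span of the 28, 1850 bp, against 2470 bp for the next and a median of 9177.5 bp. The shortest of the 156 stretches in the opposite direction spanned 2995 bp. The median score of the Smarca4 stretch, 122.4, was also the highest of the 28, whose medians began at 54.5 and had a middle value of 68.8. Among the 156 tamoxifen stretches the median scores reached 102.1 within their own list.

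**Figure D3:**
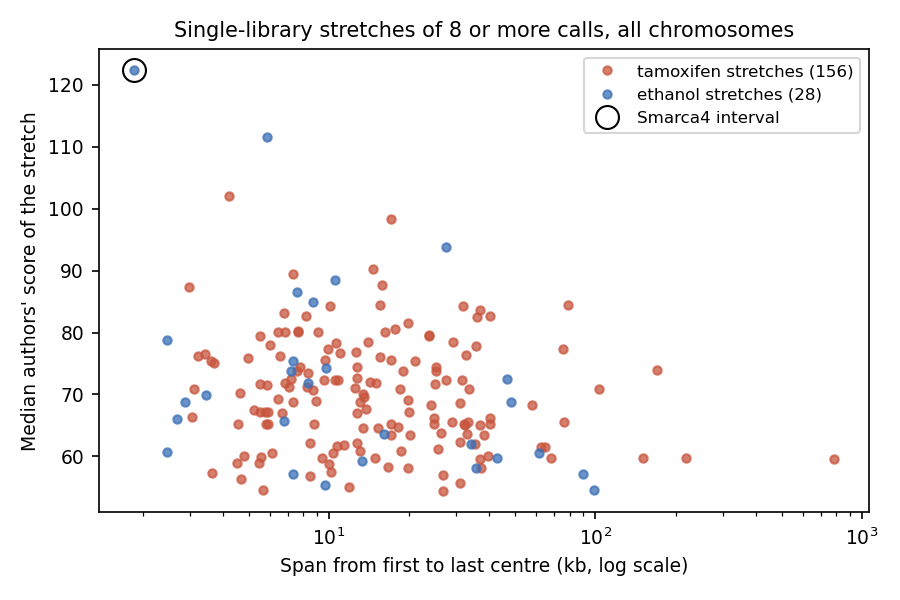
Span in kb (horizontal axis, log scale) and median authors' score (vertical axis) of every stretch of 8 or more calls found in 1 library alone, 28 with ethanol (blue) and 156 with tamoxifen (red); scores of the 2 lists are each on their own list's scale. The circled Smarca4 stretch, at 1850 bp and a median score of 122.4, has the shortest span of all points and the highest median of the ethanol stretches.

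Compact runs of ethanol calls elsewhere nearly always had tamoxifen calls among them. All runs of 8 successive ethanol calls spanning no more than 1850 bp were collected, a limit set by the Smarca4 stretch and chosen after it was known. There were 6251 such runs, overlapping ones included, with a median of 6 tamoxifen calls between their outermost centres. The run in Smarca4 was the 1 with none, 0.016%, and 8 others had 1 tamoxifen call. With other limits it was not the only one: 9 ethanol runs with spans up to 2500 bp had none, as did 114 runs of 6 calls. Among 7554 tamoxifen runs as compact, 1 had no ethanol call between its outermost centres, 0.0132%. That run, on chromosome 12 with outermost centres at 85547596 and 85549181, differs in that 6 of its 8 calls lay over 100 bp from an ethanol call and the closest was 10 bp away. In Smarca4 all 8 did, and the closest distance was 305 bp.

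**Figure D4:**
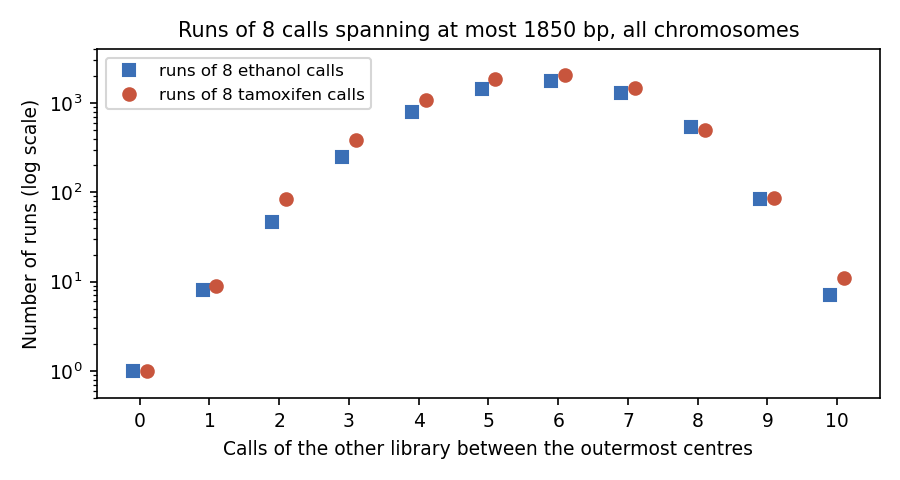
Number of runs of 8 successive calls spanning at most 1850 bp (vertical axis, log scale) by the number of calls of the other library between their outermost centres (horizontal axis), for 6251 ethanol runs (blue squares) and 7554 tamoxifen runs (red circles). Both sets centre on 6, and 1 run of each has 0; the ethanol run at 0 is the one in Smarca4.

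With the gap left out, the rest of the Smarca4 locus held 125 ethanol and 131 tamoxifen calls. This cut keeps the tamoxifen edge call at 21468086 and drops its ethanol partner at 21468091. The scaled log2 ratio was then -0.07 (exact interval -0.43 to 0.30), and without scaling the value was 0.07. The remaining ethanol calls had a median score of 98.2, against 98.7 with the stretch included. Leaving out a gap picked for its missing tamoxifen calls raises the ratio by construction, so these values describe the remaining calls and support nothing further.

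Nucleosome positions in the locus were shared between the libraries about as often as over the genome. Among the 134 ethanol calls, 60 were within 20 bp of a tamoxifen call, 44.8% (Wilson interval 36.6 to 53.2%), beside 44.4% of all ethanol calls. Among the 131 tamoxifen calls, 60 were within 20 bp of an ethanol call, 45.8% (37.5 to 54.3%), beside 40.5% of all tamoxifen calls. The flank before the locus had 37.9% and the flank after it 47.2% of ethanol calls so shared, with intervals that overlap that of the locus. In the 60 pairs the tamoxifen centre was at a higher coordinate in 20, at a lower one in 34 and identical in 6, with a median distance of 10 bp, which is 1 step of the grid on which the starts and ends lie.

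The share of calls without a partner in the other library lay between those of the flanks for ethanol and below both flanks for tamoxifen. Of the ethanol calls, 41 of 134 (30.6%, Wilson interval 23.4 to 38.9%) lay over 100 bp from any tamoxifen call, beside 34.4% of the whole ethanol list, 37.1% in the flank before the locus and 24.4% in the flank after it. Of the tamoxifen calls, 39 of 131 (29.8%, 22.6 to 38.1%) lay over 100 bp from any ethanol call, beside 40.1% of the whole tamoxifen list, 33.6% in the flank before and 34.9% in the flank after. The counting intervals of the locus overlap those of both flanks in each direction. The ethanol interval holds the share of the whole ethanol list, whereas the tamoxifen interval lies below the 40.1% of the whole tamoxifen list. The calls were grouped differently in the 2 lists. The 41 ethanol calls comprised 20 single calls, 2 pairs, 3 runs of 3 and the run of 8. The 39 tamoxifen calls comprised 28 single calls, 4 pairs and 1 run of 3.

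The remaining single-library stretches of the locus were short and mostly of weak calls. The longest tamoxifen stretch had 3 calls, at 21427411, 21428631 and 21428956, with scores of 67.9, 68.8 and 54.7. It lay in an ethanol gap of 4620 bp near the low-coordinate end of the locus. An ethanol stretch of 3 calls from 21459701 to 21460021 had scores of 50.8 to 72.9 and faced a tamoxifen gap of 4245 bp. Another, from 21430116 to 21430466, had scores of 54.5 to 140.2 and faced a tamoxifen gap of 4090 bp. In the flanks, the longest ethanol stretch had 6 calls from 21405971 to 21407681, a span of 1710 bp, with scores of 50.8 to 74.4. It faced a tamoxifen gap of 2550 bp, so its span and gap were near those of the Smarca4 stretch of 8 calls. The longest tamoxifen stretch of the flanks had 5 calls from 21594406 to 21595131 with scores of 50.8 to 79.5. Some shorter flank stretches held stronger calls. An ethanol one of 3 calls from 21361976 to 21362516 had scores of 60.4 to 245.8. A tamoxifen one of 3 calls from 21512841 to 21514226 had scores of 85.2 to 137.9.

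The ethanol stretch at 21430116 was the end of the most regular run of nucleosomes in the locus. An array is taken here as 4 or more calls in a row with neighbouring centres 150 to 230 bp apart. The locus held 1 ethanol array, of 6 calls from 21429536 to 21430466 with a mean spacing of 186.0 bp, and no tamoxifen array. The first 3 of its calls, at 21429536, 21429696 and 21429901, had tamoxifen calls 30, 0 and 5 bp away. The last 3, with scores of 140.2, 98.8 and 54.5, had none within 100 bp. The tamoxifen call beside the start of the array, at 21429506, had a score of 334.5, percentile 97.3 of its list, whereas its ethanol neighbour scored 108.1, percentile 65.4 of the ethanol list. The flank before the locus had 1 ethanol array and the flank after it 2, all of 4 calls, and the flank after it also had 1 tamoxifen array of 4 calls.

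The strongest nucleosomes of the locus were called in both libraries. The ethanol call with the highest score, 433.2, was centred at 21463316, and a tamoxifen call with a score of 311.3 lay 15 bp away. The tamoxifen call with the highest score, 433.4, was centred at 21490926, and the ethanol call 10 bp away was ranked 2 of its list in the locus with 413.5. A pair near the low-coordinate end, at 21420551 with ethanol and 21420556 with tamoxifen, was ranked 3 in the ethanol list and 2 in the tamoxifen list, with scores of 410.3 and 384.0. The pairs at 21490926 and 21420556 were thus among the 3 strongest calls of the locus in each list.

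The other calls among the 5 strongest of a list had weaker partners. Ethanol calls at 21420416 and 21498861 scored 345.7 and 319.9, and their tamoxifen partners, 5 and 10 bp away, scored 141.3 and 156.5, at percentiles 79.4 and 83.5 of that list. Tamoxifen calls at 21442076 and 21508051 scored 366.3 and 327.6, and their ethanol partners, 10 and 15 bp away, scored 183.0 each, at percentile 88.1. All 5 strongest calls of the ethanol list had a partner within 20 bp, and those of the tamoxifen list within 30 bp. In the locus, ethanol calls with a partner within 20 bp had a median percentile of 72.0, and those over 100 bp from any tamoxifen call of 35.7. For tamoxifen calls the medians were 69.8 and 36.5.

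**Figure D5:**
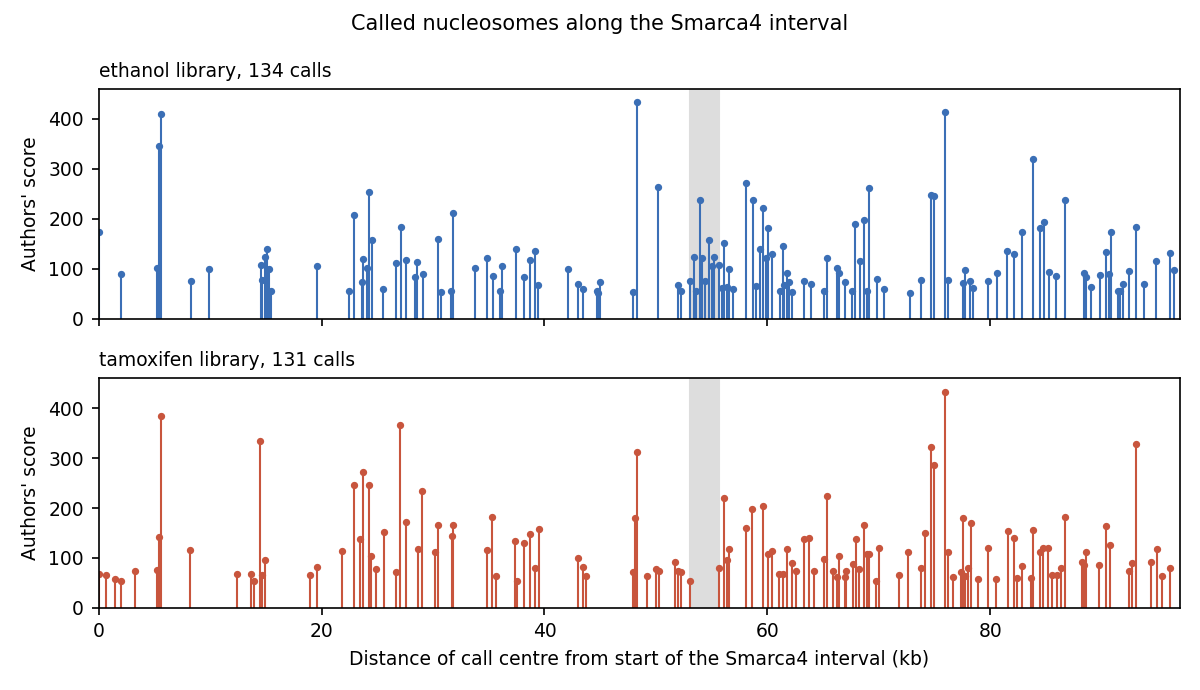
Authors' score (vertical axis, each list on its own scale) of every called nucleosome against the distance of its centre from the start of the Smarca4 interval in kb (horizontal axis), for the ethanol library (upper panel, 134 calls) and the tamoxifen library (lower panel, 131 calls). The grey area is the tamoxifen gap of 2605 bp, which holds ethanol calls with scores up to 237.2. The strongest calls at 5.6 and 75.9 kb stand in both panels.

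Median scores of the locus were similar in rank in both lists. The median was 98.7 with ethanol, where calls of the locus had a median percentile of 59.6, and 99.2 with tamoxifen, with a median percentile of 60.5. Medians of the flanks were 93.9 and 88.9 with ethanol and 95.3 and 95.1 with tamoxifen, also above the median of either full list.

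Successive calls of the Smarca4 locus lay closer together than over chromosome 9 as a whole, and the flanks shared this. The median distance between successive centres in the locus was 445 bp in the ethanol library and 485 bp in the tamoxifen library, against 875 and 825 bp on chromosome 9. Distances of 140 to 400 bp, those of near neighbours, made up 42.9% (Wilson interval 34.8 to 51.4%) of 133 distances with ethanol and 39.2% (31.3 to 47.8%) of 130 with tamoxifen. The shares were 48.1 and 42.7% in the flank before the locus, 38.1 and 43.9% in the flank after it, and 25.2 and 26.2% on chromosome 9. Between the libraries the neighbour shares of the locus differed by less than their counting intervals.

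At the first edge of the rule, calls just outside and just inside the limit were centred at 21413796 and 21415051 with ethanol, scoring 151.1 and 172.6, and at 21413736 and 21415021 with tamoxifen, scoring 144.6 and 68.6. At the second edge, the last calls inside were at 21511521 with ethanol (98.2) and 21511091 with tamoxifen (80.1), and the first outside at 21512146 (95.1) and 21512201 (190.9). The gap of 2605 bp begins 53.1 kb inside the first edge and does not depend on where the edges are drawn. Whether the missing tamoxifen calls mark the floxed segment was not tested, since the sources used here do not place that segment. With 1 library per group, a difference between the agents and a difference between the digests or the sequencing depth of the libraries cannot be told apart.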

How the data were processed

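Nucleosomes were profiled by MNase-seq in 2 libraries. Per the labels' protocols, MNase was titrated on isolated nuclei, and DNA of mononucleosome size from the digest with 12 U was sequenced. Reads were aligned with Bowtie 0.12.9 to mm9, per the submitters' processing notes; the sources used here name no nucleosome caller or cutoffs and do not define the score. The authors deposited 1 list of calls per library with a score for each call; their coordinates fall on a grid of 10 bp and are printed unchanged. Groups come from the sample titles.

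Centres are midpoints of start and end. Calls in the locus were counted, matched to the nearest centre of the other list, and scaled to the calls of each whole list. Stretches, gaps and runs were taken over all chromosomes and printed for the locus. Shares have Wilson, counts exact Poisson and ratios exact Clopper-Pearson intervals. With the score as the only measurement and 1 library per group, nothing was tested. The calls described one by one are those of the longest stretch in each direction, their neighbours, and the 5 strongest of each list, by rule; a few others were chosen after their values were seen. The locus, its limits and these comparisons were chosen with earlier results of these data known. The runs of 8 calls were added after the stretch had been measured. The alternatives tried were a cut at the median score and other distance limits, scalings and limits of the locus. No genome of mm9 was used, so no sequence is printed. The search for stretches was checked on a simulated list of 20000 calls, in which 20 of 20 planted losses of 8 calls were found, with 0 others of that size. In that simulation the calls beside each planted loss were always kept and the other list had no calls of its own. It thus checks the search and cannot show how often such stretches arise in these lists. The work used matplotlib 3.10.9, scipy 1.17.1, pandas 2.3.3, numpy 2.4.6 and Python 3.11.15.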

Additional observations from a re-analysis of the deposited data

How the results depend on the processing

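Of 54 alternatives, 32 stayed within the counting interval, or within 1.5 times for counts, and 22 moved further. The stretch of 8 ethanol calls was found at each distance limit and kept 6 calls at or above the median score; it grew to 13 when tamoxifen calls below their median were dropped, which widens gaps by construction. The longest tamoxifen stretch, of 3 calls, went to 1 and 6 under the same cuts. Log2 ratios of the locus ran from -0.22 to -0.03 and none of their intervals left 0 out. The share of ethanol calls with a partner, 44.78%, became 29.1% within 10 bp, 60.45% within 40 bp, 69.4% by overlap and 54.32% for ethanol calls at or above their median score; for tamoxifen calls 45.8% became 29.77, 61.83 and 70.23% by distance and overlap. Calls without a partner fell by construction from 41 to 16 and from 39 to 12 above the median score. Gaps facing at least 6 calls numbered 330 and 1400, against 28 and 156 at 8 calls. Neighbour shares of 42.86 and 39.23% became 34.59 and 26.92% up to 300 bp and 26.25 and 28.0% above the median score. Runs with no call of the other library, 1 in each direction, rose to 9 and 5 with spans up to 2500 bp and to 114 and 165 with 6 calls per run, alternatives chosen after seeing the data. For the other changes the cause was not tested. The unknown read depth limits every statement on a missing call. No paired analysis was possible because there is only 1 library with ethanol and 1 with tamoxifen.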

Other observations

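Besides Smarca4, 8 compact ethanol runs had a single tamoxifen call between their outermost centres. The one with the most unpartnered calls lay on chromosome 13, from 49178581 to 49180261, where 7 of 8 calls lay over 100 bp from any tamoxifen call, with a median score of 92.1. It overlaps another of the 8 runs, which begins at 49178351. Among tamoxifen runs, 9 had a single ethanol call between their outermost centres.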
